A study of Mus musculus with 16 samples.

Results

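The renin-angiotensin genes described here are 7: Agt, which encodes the precursor of the angiotensins, Ace, Enpep, Anpep and Lnpep, which encode peptidases that make or trim these peptides, and Agtr1a and Agtr2, which encode their receptors. They were found by matching the RefSeq accession of each row of the deposited expression table to these gene symbols, which gave 12 rows of 130343, and 7 genes of 35552 with a matched symbol. Enpep and Agt were picked on their measured counts, for a depot-dependent response to diet in these same libraries, so their diet values are a description and carry no test.

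The samples were subcutaneous adipose tissue (SAT, the inguinal depots of the hindlimb, left and right combined) and mesenteric visceral adipose tissue (VAT) from male WT C57Bl/6 mice, named C57BL/6J in the study's methods. Obese mice ate a high-fat diet (42% of energy from fat, 0.2% cholesterol) for 12 to 14 months from 10 weeks of age, and lean controls ate a normal laboratory diet for as long. Each of 8 mice, 4 per diet, gave SAT and VAT, so that 16 libraries of poly-A RNA formed 4 groups of 4 separate mice. SAT and VAT libraries with the same number within a diet were taken as 1 mouse. These were whole depots freed of visible vasculature, and in bulk tissue fewer cells of a type and less RNA per cell cannot be told apart.

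In the renin-angiotensin system, renin cuts angiotensinogen, the product of Agt, to angiotensin I, and angiotensin-converting enzyme, the product of Ace, trims angiotensin I to angiotensin II, which acts through the type 1 receptor to constrict vessels and raise aldosterone. Aminopeptidase A, the product of Enpep, removes the first residue of angiotensin II, and aminopeptidase N, the product of Anpep, removes the next. The insulin-regulated aminopeptidase, the product of Lnpep, binds the shortened peptide and travels with GLUT4 in adipocytes. Adipocytes make angiotensinogen, and liver is its main source in blood.

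The stretch of Agt that encodes angiotensin I is shown 3 times because most of the peptidases above act on its ends. It covers 30 bases of exon 2 of the GENCODE transcript ENSMUST00000238882 (codons 25 to 34), at chr8:125291189-125291218 on the minus strand of GRCm39, and is written 5′ to 3′. Capitals mark in turn the codon whose residue Enpep removes from angiotensin II, the codon whose residue Anpep removes next, and the last 2 codons, whose residues Ace removes.
Enpep, first codon: GACcgcgtatacatccaccccttccatctc
Anpep, next codon: gacCGCgtatacatccaccccttccatctc
Ace, last 2 codons: gaccgcgtatacatccaccccttcCATCTC

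The promoters of Agt and Enpep are shown because both genes had lower values in VAT of obese mice than in VAT of lean mice. Each is the RefSeq stretch around the gene's start (build GRCm38.p6, 300 bases, minus strand, 5′ to 3′), with capitals for matches on either strand to the letters CCAAT, or to the letters TATAAA that many core promoters hold. The Agt stretch is chr8:124569657-124569956 and that of Enpep chr3:129332700-129332999.
Agt promoter: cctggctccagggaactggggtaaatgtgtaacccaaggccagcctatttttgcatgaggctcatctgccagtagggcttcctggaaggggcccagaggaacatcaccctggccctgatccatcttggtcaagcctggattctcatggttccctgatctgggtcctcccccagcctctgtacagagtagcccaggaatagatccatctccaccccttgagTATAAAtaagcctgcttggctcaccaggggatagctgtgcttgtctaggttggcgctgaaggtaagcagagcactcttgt
Enpep promoter: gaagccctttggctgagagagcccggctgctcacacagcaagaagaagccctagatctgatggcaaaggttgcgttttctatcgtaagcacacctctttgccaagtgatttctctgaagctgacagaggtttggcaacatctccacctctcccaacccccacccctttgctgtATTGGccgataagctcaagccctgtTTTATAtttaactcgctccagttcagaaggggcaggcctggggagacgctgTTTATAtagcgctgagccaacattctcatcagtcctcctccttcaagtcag
The Agt stretch holds 1 TATAAA match, 30 bases before the start, and no CCAAT match. The Enpep stretch holds 2 TATAAA matches and 1 CCAAT match, all on the other strand, and no match overlaps another. Among 32851 RefSeq promoters of this length 13.6% hold TATAAA and 37.4% hold CCAAT, so both motifs are common and the matches are a description of letters alone.

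Values are given as CPM, counts scaled to a common library size so that libraries of unlike depth compare, after TMM factors that correct each library for its composition. Total counts were between 4604460 and 11897722 in SAT from lean mice, 10828758 and 16614407 in SAT from obese mice, 1256082 and 15802634 in VAT from lean mice, and 2247737 and 11615347 in VAT from obese mice, and replicate 1 of each diet was the shallowest library in VAT. The adipocyte list had counts for 6 of 6 markers, with sums, mostly Fabp4 and Lep, of 37008 to 57638 CPM in SAT and 15168 to 34269 CPM in VAT. A row was tested when its CPM was above 1 in at least 3 of 16 libraries, which kept 13288 rows, among them 1 row each of Agt, Ace, Enpep, Anpep and Lnpep. No row of Agtr1a or Agtr2 was kept.

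How a gene is listed in the table limits what its counts mean. Protein-coding genes with 1 row made up 37.6% of such genes and held 86.8% of their counts, and some markers with several rows, such as Pecam1 of endothelium, had no count in any library. Low counts of a gene with several rows (Agt with 2, Ace with 3, Agtr1a with 3) are therefore not read as low expression. Enpep, Anpep, Lnpep and Agtr2 have 1 row each.

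Agt, the precursor gene, lies at chr8:125279301-125296716 on the minus strand of GRCm39, and its ends overlap Cog2 and Capn9 on the other strand. The strand setting of the counting is not given in the sources used here, so reads within such overlaps of members with other genes cannot be told apart. In SAT from lean mice its row held 101, 40, 31 and 16 counts, or 8.32, 5.61, 2.95 and 3.39 CPM. In SAT from obese mice it held 5, 0, 2 and 2 counts, or 0.383, 0, 0.138 and 0.154 CPM. No obese library reached the lowest lean library in SAT, and the obese values rest on 9 counts in all.

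In VAT Agt stood at 18.5, 10.2, 9.30 and 12.8 CPM in lean mice. In obese mice it stood at 2.67, 2.05, 3.15 and 1.71 CPM, again with no overlap between the diets. The group means were 5.07 ± 2.46 CPM (SD, n = 4) in lean SAT and 0.169 ± 0.159 CPM in obese SAT. In VAT they were 12.7 ± 4.13 and 2.39 ± 0.642 CPM. The fitted log2 fold change relative to lean controls was −4.76 (standard error, SE, 0.48) in SAT and −2.36 (SE 0.35) in VAT. Agt thus had lower values with obesity in both depots, and the log2 decrease in VAT was less deep by 2.40 (SE 0.55), values by which Agt was chosen. Without replicate 1 of the obese mice, which held 5 of the 9 counts in obese SAT, the SAT value was −5.45.

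From the highest level to the lowest, Agt ran from lean VAT over lean SAT and obese VAT to obese SAT. Lean SAT and obese VAT were neighbours whose libraries overlapped (2.95 to 8.32 CPM against 1.71 to 3.15 CPM), whereas the other neighbours in this order did not overlap.

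The receptors were near the limit of what these counts show. Agtr1a, the type 1 receptor gene (chr13:30518942-30566850, plus strand, overlapping Gm48161 on the same strand), had 8 counts in lean SAT, 10 in obese SAT, 13 in lean VAT and 14 in obese VAT, summed over its 3 rows and 4 libraries. At this depth no order of the groups could be read, and its RefSeq row NM_177322 had no count at all.

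Agtr2, the type 2 receptor gene whose signalling mostly opposes that of type 1 (chrX:21350763-21355403, plus strand), had 2, 1, 0 and 0 counts in lean SAT and 0, 1, 7 and 7 counts in obese SAT. In VAT it had no count in the lean mice, which allows up to 0.0863 CPM over the group, and 2 counts in obese mice, both in replicate 4. Most of its 20 counts thus came from obese SAT replicates 3 and 4. Limits from a count of 0 use 3 counts and cover counting error only.

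Ace, which makes angiotensin II, lies at chr11:105858469-105880790 on the plus strand and shares most of that stretch with the long noncoding RNA gene Gm11651 on the other strand. Its tested row was at 3.95, 2.80, 1.81 and 7.42 CPM in lean SAT and at 3.99, 4.12, 1.86 and 3.69 CPM in obese SAT. In VAT it was at 8.92, 2.26, 2.67 and 3.41 CPM in lean and 3.81, 6.08, 5.63 and 5.71 CPM in obese mice. All 4 groups overlapped, and the highest lean VAT value belongs to the shallowest library.

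The log2 fold change of Ace with obesity was −0.16 (SE 0.38, adjusted p = 0.846) in SAT and 0.69 (SE 0.40, adjusted p = 0.315) in VAT, by edgeR's quasi-likelihood test with Benjamini-Hochberg adjustment over all rows. Intervals of 2 SE on either side were −0.92 to 0.60 for SAT and −0.11 to 1.48 for VAT, so increases or decreases within them could not be seen here. A further Ace row, NM_009598, was not kept by the filter and stood at 0.0823 to 0.421 CPM in lean SAT and 0.539 to 1.15 CPM in obese SAT. In VAT it overlapped between the diets, with 0 to 0.770 CPM in lean and 0 to 1.54 CPM in obese mice, and the third row had no count.

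Enpep, which degrades angiotensin II, lies at chr3:129062824-129126369 on the minus strand, with the processed pseudogene Gm42628 on the other strand inside it. It was at 115, 138, 115 and 134 CPM in lean SAT. In SAT from obese mice it was at 186, 172, 205 and 194 CPM. Each obese SAT library was above each lean SAT library, with group means of 125 ± 11.9 and 189 ± 14.1 CPM (SD, n = 4).

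In VAT the order of the diets was the other way round. Enpep was at 863, 1001, 1118 and 830.0 CPM in lean VAT. In obese VAT it was at 341, 350.1, 353 and 234 CPM. Group means were 953 ± 132 CPM in lean and 319.6 ± 57.3 CPM in obese mice, so the mean in obese VAT was 2.98-fold lower, with no overlap. The fitted log2 fold change was 0.60 (SE 0.13) in SAT and −1.58 (SE 0.13) in VAT, a difference between depots of −2.18 (SE 0.18). These are the values by which Enpep was picked.

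**Figure D1:**
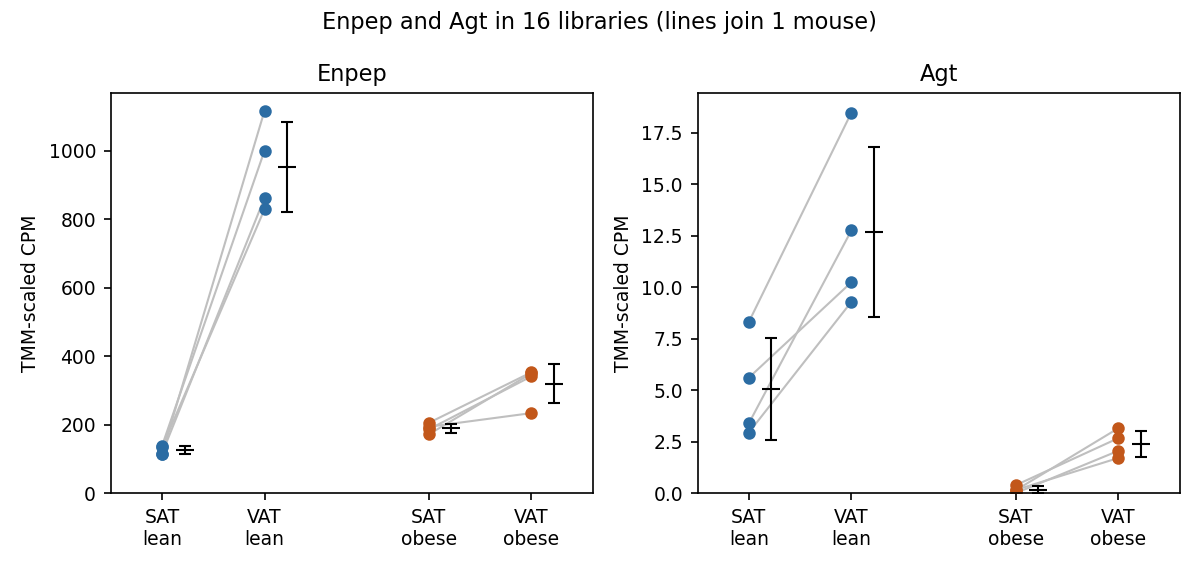
Enpep (left) and Agt (right) in TMM-scaled CPM in the 16 libraries, with a grey line joining SAT and VAT of 1 mouse, and the mean ± SD of 4 mice in black beside each group. Enpep rose from SAT to VAT in each mouse, from 115 to 138 CPM up to 830.0 to 1118 CPM in lean mice and from 172 to 205 CPM up to 234 to 353 CPM in obese mice, while Agt was lower with obesity in both depots.

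Within a mouse, VAT held 7.48, 7.27, 9.72 and 6.22 times the Enpep level of SAT in lean mice. In obese mice the ratio was 1.83, 2.04, 1.72 and 1.21. The lowest ratio in lean mice was therefore above the highest in obese mice, which restates the depot-dependent diet change. From highest to lowest, Enpep ran from lean VAT over obese VAT and obese SAT to lean SAT, and no neighbours in that order overlapped.

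Anpep, whose product acts after that of Enpep, lies at chr7:79471551-79510807 on the minus strand and overlaps Gm44974 on its own strand and Gm71751 on the other. It was at 0.329, 0, 0.190 and 0.212 CPM in lean SAT and at 0.844, 0.634, 0.619 and 0.154 CPM in obese SAT. In VAT it was at 0.637, 0.715, 0.214 and 0.660 CPM in lean mice and 3.43, 1.31, 1.43 and 1.96 CPM in obese mice. The diets overlapped in SAT and were apart in VAT, on 119 counts in all 16 libraries.

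Anpep was above 1 CPM in the 4 libraries of obese VAT alone, so it passed the filter only through that group, and a higher level there was a condition of being tested. Its values in contrasts that include obese VAT are therefore a description with no p. The fitted log2 fold change with obesity was 1.72 (SE 0.55) in VAT, and 1.49 without the 2 shallow VAT libraries. In SAT it was 1.44 (SE 0.68, adjusted p = 0.186) by edgeR. The difference between depots was 0.27 (SE 1.29) and ranged from −0.23 to 0.96 over the fits run, turning below 0 without lean replicate 3 or obese replicate 4, so that no direction is given.

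Lnpep lies at chr17:17741672-17845312 on the minus strand and overlaps Gm49784 on its own strand and Gm64615 on the other. It was at 117, 196, 216 and 110.4 CPM in lean SAT and at 183, 164, 249.7 and 289.9 CPM in obese SAT. In VAT it was at 195, 298, 177 and 202 CPM in lean mice and 237, 202, 204 and 169 CPM in obese mice. The diets overlapped in both depots.

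The log2 fold change of Lnpep was 0.47 (SE 0.21, adjusted p = 0.162) in SAT and −0.11 (SE 0.21, adjusted p = 0.811) in VAT by edgeR. The difference between depots was −0.58 (SE 0.24, adjusted p = 0.252). Without a filter on low counts the SAT value was 0.50 (SE 0.15, adjusted p = 0.0337), and the cause of this change was not tested.

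**Figure D2:**
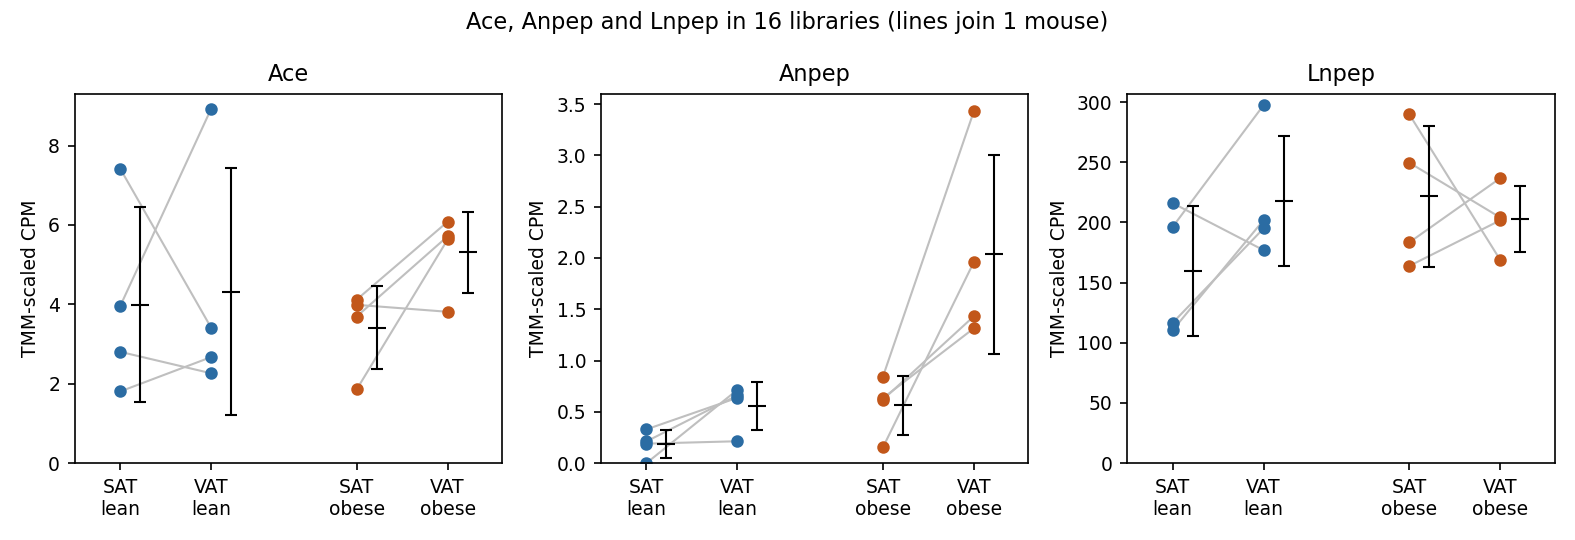
Ace, Anpep and Lnpep in TMM-scaled CPM in the 16 libraries, with a grey line joining SAT and VAT of 1 mouse and the mean ± SD of 4 mice in black. The diets overlap in each panel except for Anpep in VAT, where obese mice sit between 1.31 and 3.43 CPM and lean mice between 0.214 and 0.715 CPM.

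Among the 3 tested genes that were not picked for their diet change (Ace, Anpep and Lnpep), 0 were called in SAT at an adjusted p below 0.05 (edgeR), where 11% of all 13288 rows were called. An unadjusted p below 0.05 was found for 2 of the 3, and the share of all rows at that threshold was not taken. DESeq2 also called 0 of the 3 in SAT, where it called 1644 of 13288 rows. In VAT, where 10.9% of all rows were called, 1 of the 3 passed. That gene was Anpep, which the filter admitted through obese VAT, so nothing is read from this count. For the difference between depots 0 passed by edgeR, which called 2.17% of all rows, and 0 by DESeq2, which called 378 of 13288 rows. An unadjusted p below 0.05 (edgeR) was found for 1 (Lnpep), again without a share over all rows. Anpep is again left out of any reading.

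The comparison of VAT with SAT, averaged over the diets, did not use the contrasts by which Enpep and Agt were picked, and was fitted for each kept row with the mouse as a block. In this comparison 33.5% of all rows were called. Of the 5 kept rows 3 passed, Enpep, Agt and Anpep, and the last is left out of any reading because the filter admitted it through obese VAT. Enpep was higher in VAT by a log2 fold change of 1.83 (SE 0.09, adjusted p = 3.7e-13, edgeR), in 8 of 8 mice. Agt was higher by 2.57 (SE 0.27, adjusted p = 8.4e-08, edgeR), also in 8 of 8 mice.

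For Anpep the fitted value was 1.71 (SE 0.51), given with no p as a description, and it was 1.36 without replicate 2 of the lean mice. Ace differed between depots by 0.37 (SE 0.24, adjusted p = 0.249) and Lnpep by 0.19 (SE 0.12, adjusted p = 0.252), each higher in VAT in 5 of 8 mice. Without replicate 3 of the lean mice Lnpep came to 0.32 with an adjusted p of 0.04 (edgeR). The plot of fitted changes shows these values side by side.

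**Figure D3:**
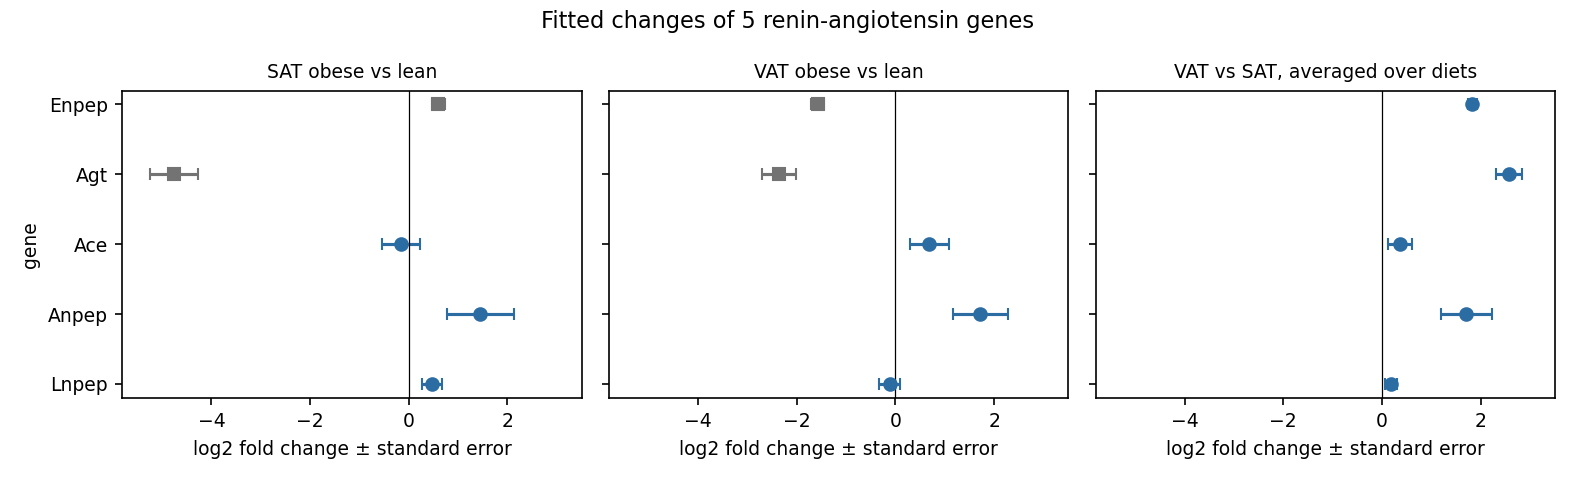
Fitted log2 fold change ± SE of the 5 tested genes, with obesity in SAT (left), with obesity in VAT (middle) and from SAT to VAT averaged over diets (right). Grey squares mark Enpep and Agt in the contrasts by which they were picked, and in the right panel Enpep lies at 1.83 and Agt at 2.57, with Ace at 0.37 and Lnpep at 0.19.

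Other genes of the pathway were taken from a list of 34, of which 17 had a kept row. Renin, the enzyme that starts the pathway, was barely counted: Ren1 had 14 counts, all in VAT, and was not tested. Mas1, the receptor gene for angiotensin 1-7, had 103 counts over 11 rows and was not tested. Agtr1b, the other type 1 receptor gene of the mouse, had 5 counts.

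In SAT 3 of the 17 genes rose with obesity and 0 fell, against the background of 11%. An unadjusted p below 0.05 (edgeR) was found for 5. The share of all rows at that threshold was not taken, so nothing is read from this 5. Ctsd, a lysosomal aspartic protease, rose from 3437 ± 510.4 to 6415 ± 317 CPM (log2 fold change 0.90, SE 0.14, adjusted p = 0.000233, edgeR). Prcp, which encodes a carboxypeptidase that trims angiotensin II at its other end, rose by 0.58 (SE 0.13, adjusted p = 0.00581). Prep, a prolyl endopeptidase able to release angiotensin 1-7, rose by 0.40 (SE 0.13, adjusted p = 0.0447), a call that was lost when any of 6 of the 8 mice was left out. The median log2 fold change of the 17 genes was 0.33, beside 0.0071 over all rows.

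In VAT 7 of the 17 genes rose and 1 fell, against 10.9% of all rows. Prcp rose from 92.4 ± 5.31 CPM in lean to 190.2 ± 29.5 CPM in obese VAT (log2 fold change 1.04, SE 0.13, adjusted p = 1.81e-05, edgeR). Its lean libraries lay between 88.6 and 100.02 CPM and its obese libraries between 159 and 228 CPM, so both depots moved the same way and without overlap. Rgs2, which dampens signalling by the G protein Gq downstream of the type 1 receptor, rose from between 19.1 and 34.1 CPM to between 43.1 and 68.1 CPM (0.94, SE 0.17, adjusted p = 0.000661). The summed macrophage markers were higher in the same groups, at 775 ± 96.2 CPM in lean and 1310 ± 180 CPM in obese SAT and at 1179 ± 82.5 CPM in lean and 2350 ± 264 CPM in obese VAT (SD, n = 4), and their part in the changes of these pathway genes was not tested.

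Cma1 and Mcpt4 encode chymases of mast cells, a family with members that can form angiotensin II without Ace. These 2 genes rose in VAT by log2 fold changes of 1.39 (SE 0.30, adjusted p = 0.0031, edgeR) and 1.36 (SE 0.32, adjusted p = 0.00655, edgeR). The diets overlapped for both, since obese replicate 1, a shallow library, was at 8.39 CPM for Cma1 and 8.77 CPM for Mcpt4, within lean ranges of 6.37 to 10.3 CPM and 5.74 to 15.1 CPM. Cpa3, the mast cell carboxypeptidase, rose by 1.72 (SE 0.30, adjusted p = 0.000562), from 2.85 ± 0.923 to 9.55 ± 4.53 CPM, without overlap. The mast cell list, made of other genes, had counts for 4 of 4 markers and sums of 0.641 to 1.27 CPM in lean VAT and 0.668 to 2.63 CPM in obese VAT. These sums rest on 2, 21, 6 and 11 counts in lean VAT and 3, 32, 7 and 21 counts in obese VAT. Each marker has several rows, so the low sums are not read as low expression. The part of mast cell RNA in these changes was not tested.

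Atp6ap2, the (pro)renin receptor and an accessory protein of the proton pump, rose by 0.38 (SE 0.11, adjusted p = 0.0361) and Ctsd by 0.44 (SE 0.14, adjusted p = 0.0487) in VAT. Each of these calls was lost when any of 7 of the 8 mice was left out. The diets overlapped in VAT for Ctsd, and did not for Atp6ap2. Mme, or neprilysin, which degrades several vasoactive peptides, was the gene that fell (−0.81, SE 0.25, adjusted p = 0.039), from 10.6 ± 2.69 to 6.31 ± 1.76 CPM with overlap between the diets, and its call was lost without replicates 3 or 4 of either diet. The median of the 17 genes in VAT was 0.38, beside 0.018 over all rows.

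**Figure D4:**
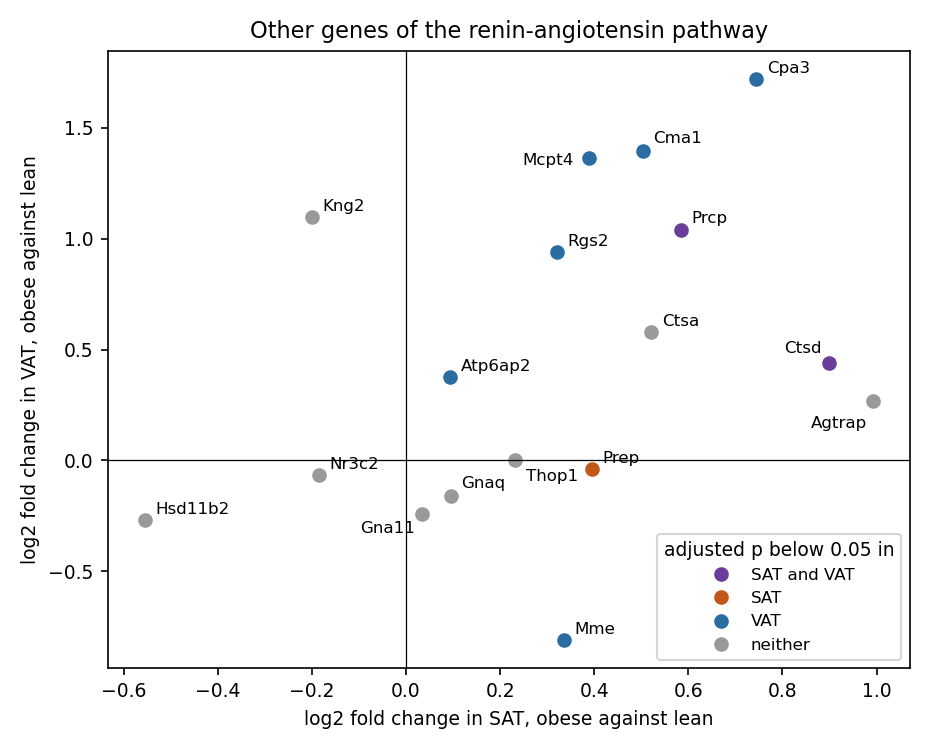
Log2 fold change with obesity in SAT (horizontal axis) and VAT (vertical axis) of the 17 other pathway genes tested, coloured by where the adjusted p is below 0.05. Prcp and Ctsd are called in both depots, and Mme lies apart with 0.33 in SAT and −0.81 in VAT.

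For the difference of the diet change between depots, 0 of the 17 genes passed in edgeR, which called 2.17% of all rows. In DESeq2 0 passed, where 378 of 13288 rows were called. An unadjusted p below 0.05 (edgeR) was found for 8. The share of all rows at that threshold was not taken, so nothing is read from this 8. Mme came to −1.07 (SE 0.33, adjusted p = 0.0977) and Rgs2 to 0.65 (SE 0.22, adjusted p = 0.127), so that a difference between depots was not established for either. Averaged over diets, 4 of the 17 were higher in VAT (Agtrap, Kng2, Prcp and Rgs2) and 5 were lower (Cma1, Gnaq, Mcpt4, Mme and Nr3c2), against 33.5% of all rows. Kng2 was above 1 CPM in 5 libraries, 4 of them VAT, so the filter admitted it mostly through the depot where it is higher, and nothing is read from its call. The call of Prcp was lost when any of 4 of the 8 mice was left out, and that of Nr3c2 for 1, replicate 3 of the lean mice. Agtrap, which encodes a protein that promotes internalisation of the type 1 receptor, was higher in VAT by 1.03 (SE 0.23, adjusted p = 0.00106). Nr3c2, the mineralocorticoid receptor gene, was lower by 0.44 on the log2 scale (SE 0.13, adjusted p = 0.00853).

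The genes whose level most resembled that of Enpep were named by Pearson's r of log2 CPM over the 16 libraries among 11795 rows. They were Ank (r = 0.930), Abra (r = 0.919) and Spon2 (r = 0.885). Ank, which encodes a pyrophosphate transporter, had means of 123 CPM in lean SAT, 136 in obese SAT, 181 in lean VAT and 151 in obese VAT, the order of Enpep with smaller steps. Abra and Spon2 were below 0.4 CPM in each SAT library, so their likeness rests on VAT.

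The genes most like Agt were H2bc21 (r = 0.955), Thbd (r = 0.953) and 2010016I18Rik (r = 0.930). Thbd, which encodes the anticoagulant receptor thrombomodulin, had 469.6 ± 66.9 CPM in lean SAT, 146 ± 6.09 in obese SAT, 917 ± 112 in lean VAT and 524 ± 9.74 in obese VAT. Libraries of a group share depot and diet, so these r values describe the 4 groups and are not independent measurements.

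The summed levels of some cell type markers differed between the same groups, and those of others overlapped. Mesothelial markers (4 of 4 counted) summed to between 0.154 and 1.40 CPM in SAT, 236 to 578 CPM in lean VAT and 292 to 355 CPM in obese VAT. Smooth muscle and pericyte markers (5 of 6 counted, Kcnj8 at 0) summed to 1389 to 2093 CPM in lean SAT, 1784 to 2207 CPM in obese SAT, 753 to 1217 CPM in lean VAT and 984 to 1149 CPM in obese VAT. These sums are mostly Rgs5, whereas Acta2 was at 204 to 268 CPM in lean SAT, 182 to 249 CPM in obese SAT, 215 to 408 CPM in lean VAT and 176 to 270.0 CPM in obese VAT. Endothelial markers (4 of 5 counted, Pecam1 at 0) were between 77.6 and 146 CPM in SAT and 72.4 and 119 CPM in VAT. Enpep is known in pericytes, and the part of mesothelial, smooth muscle, pericyte and endothelial RNA in its values was not tested.

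Intestinal epithelium, which also makes Enpep and Anpep, lies next to mesenteric fat. Its markers (7 of 7 counted) summed to 59.9 and 59.5 CPM in replicates 2 and 4 of lean VAT, to 19.8 and 18.2 CPM in replicates 1 and 3, and to 17.1 to 22.1 CPM in obese VAT beside 16.7 to 28.2 CPM in SAT. Enpep was at 1001 and 830.0 CPM in the first pair and 863 and 1118 CPM in the other. Except in replicate 4 of lean VAT, the sums were mostly Lgals4 and Muc2, which SAT also held. In lean VAT Slc5a1 was at 1.27, 1.25, 0 and 4.62 CPM, Zg16 at 1.27, 5.36, 0.321 and 4.40 CPM, and Fabp2 at 0, 1.19, 0 and 15.1 CPM. In SAT Slc5a1 had no count, Zg16 was at 0.0823 to 0.424 CPM and Fabp2 at 0 to 0.138 CPM. The part of intestinal RNA in the Enpep and Anpep values was not tested.

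Hepatocyte markers (4 of 4 counted, mostly Alb) summed to 77.6 to 229 CPM in SAT and 19.4 to 51.3 CPM in VAT except for 399 CPM in replicate 1 of obese VAT. Apoa1 was at 11.1 CPM in replicate 4 of lean VAT, 40.4 CPM in replicate 1 of obese VAT and at most 0.774 CPM in any other library. Agt in replicate 1 of obese VAT was 2.67 CPM, from 7 counts. Adipocyte sums were 20841 to 34269 CPM in lean and 15168 to 25966 CPM in obese VAT, and 40734 to 57638 CPM in lean and 37008 to 52060 CPM in obese SAT. They were mostly Fabp4 and Lep, which were lower in VAT. Adipoq was at 5239 to 6382 CPM in lean SAT, 4392 to 5779 CPM in obese SAT, 4735 to 7160 CPM in lean VAT and 2699 to 5190 CPM in obese VAT. By group means, 2 of the 6 markers were higher in lean VAT than in lean SAT, and 0 in obese VAT than in obese SAT. The part of hepatocyte and adipocyte RNA in the Agt values was not tested.

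**Figure D5:**
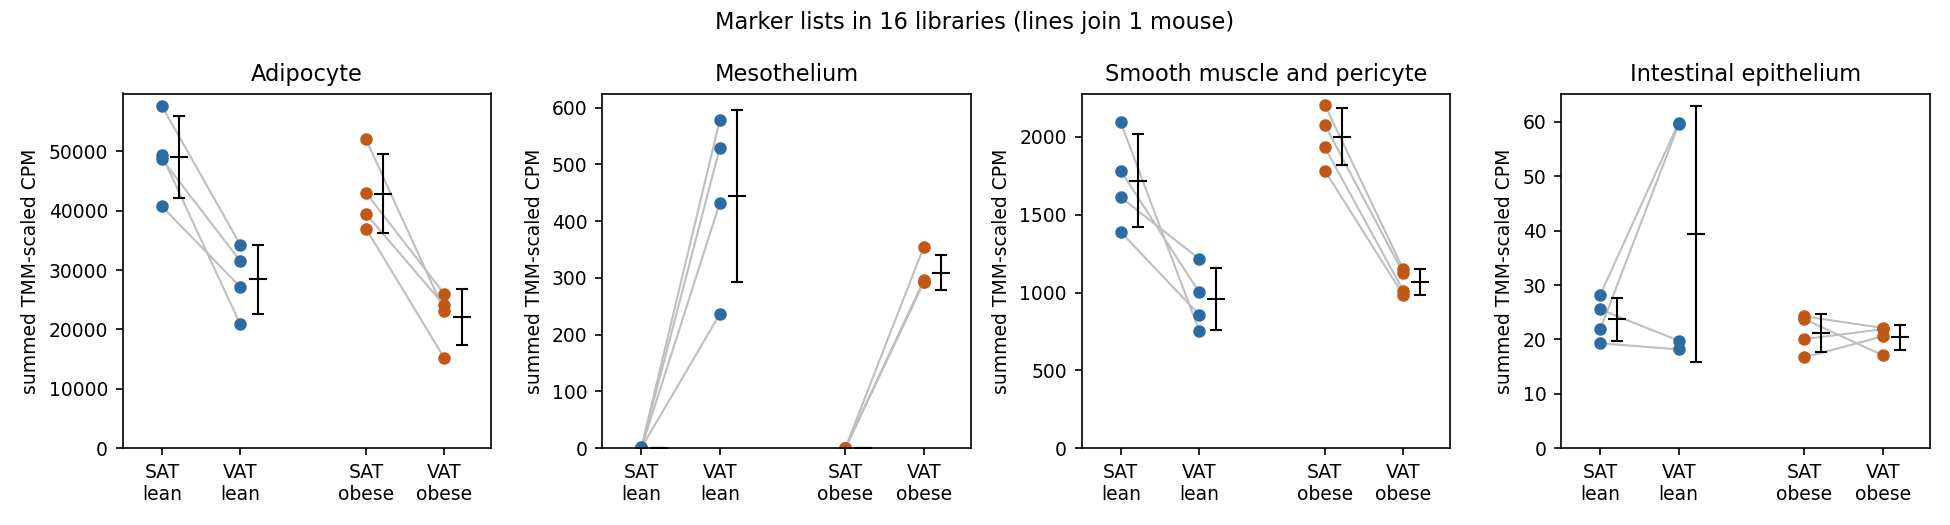
Summed TMM-scaled CPM of 4 marker lists in the 16 libraries, with a grey line joining SAT and VAT of 1 mouse and the mean ± SD of 4 mice in black. Mesothelial markers lie near 0 in SAT and between 236 and 578 CPM in VAT, and intestinal markers are high in 2 of the 4 lean VAT libraries.

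Macrophage markers (5 of 5 counted) summed to 649.7 to 861 CPM in lean and 1111 to 1532 CPM in obese SAT, and to 1083 to 1258 CPM in lean and 2119 to 2721 CPM in obese VAT, without overlap in either depot. Lymphocyte markers (5 of 5) ranged over 3.23 to 7.91 CPM in SAT, 28.5 to 215 CPM in VAT from lean mice, and 169.7 to 303 CPM in VAT from obese mice. Both lists had their highest values in obese VAT, as Anpep did, and Anpep is known on myeloid cells. Their part in the Anpep values was not tested.

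Progenitor and fibroblast markers (4 of 4) were between 321 and 697 CPM in SAT and 594 and 954 CPM in VAT. Exocrine pancreas markers (4 of 4) reached 8.29 CPM in lean and 4.18 CPM in obese mice in VAT, and skeletal muscle markers (3 of 3) stayed at or below 1.14 CPM in each library.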

How the data were processed

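RNA from SAT and VAT of 8 mice was sequenced, and 16 libraries were grouped by the labels. The authors trimmed reads with Trim Galore (0.6.6 in the submitters' processing notes, while the study's methods give another number), aligned them to GRCm39 with HISAT2 2.2.0 (RefSeq annotation) and counted them with HTSeq 0.13.5, per the labels and the study's methods. How reads shared by several transcripts were assigned, and the strand setting, are not given in the sources used here. The deposited values are counts per RefSeq transcript and CPM, which equal the counts scaled to each library's total, and all 32 value columns were checked. Symbols were matched by RefSeq accession (81.9% of rows).

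edgeR 4.0.16 (R 4.3.3) was run on the deposited counts with TMM factors, the quasi-likelihood test (legacy = TRUE) and Benjamini-Hochberg adjustment. The 16 libraries were fitted as 4 groups for the diet comparisons, and with the mouse as a block for the depot comparisons. The study's methods state that each mouse gave both depots and that pairs were controlled for, and libraries with the same number within a diet were taken as 1 mouse, which the sources do not spell out. Deviations from the group means correlated by −0.0090 to 0.173 (median 0.0759) in the 8 pairs of 1 mouse and by −0.154 to 0.121 (median −0.0392) in 24 pairs of different mice. Deviations within a group cancel out, so the values for different mice are tied to those for the same mouse. The ranges also overlapped, so these correlations cannot decide the pairing. SE is the log2 fold change divided by the square root of F. Genes named are the 7 members, the called genes of the pathway list plus Ren1, Agtr1b, Mas1 and Atp6ap2 (a further gene under this rule is not reported here), and the 3 rows most like Enpep and Agt (log2 CPM, prior count 2). Thop1 lies outside this rule and was named after its values were seen.

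Members, pathway list and 12 marker lists were chosen with earlier results of these data known. Alternatives were RLE factors, no filter, DESeq2 1.42.0, counts summed per gene, limma 3.58.1 voom taking the mouse as random, no block, fits of 8 libraries, each mouse left out and, chosen after seeing the data, leaving out the 2 shallowest VAT libraries and summing per gene without a filter. Gene positions are from GENCODE vM39. Weights of mice were not analysed here.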

Additional observations from a re-analysis of the deposited data

Results flagged for a closer look

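In groups of 4 mice, 5 of 88 groups held a value far from the other 3 mice by Dixon's criterion for the gap over the range, and chance gives about 1 in 20. Enpep in obese VAT was 234 CPM in replicate 4, where the other mice were between 341 and 353 CPM. Anpep in lean VAT was 0.214 CPM in replicate 3, beside 0.637 to 0.715 CPM, a gap of a few counts. Atp6ap2 in obese VAT was 262 CPM in replicate 4, beside 203 to 213 CPM. Thop1, which encodes a peptidase able to form angiotensin 1-7, was 37.7 CPM in replicate 1 of obese VAT, 1 of the 2 shallow libraries, beside 18.1 to 20.9 CPM. Mcpt4 in obese SAT was 56.4 CPM in replicate 4, beside 30.9 to 34.9 CPM.

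The diet change differed between depots for Enpep by −2.18 (SE 0.18) and for Agt by 2.40 (SE 0.55) on the log2 scale. Both genes were picked for this difference, so the values are a description.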

How the results depend on the processing

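Enpep and Agt kept their direction in every fit run: with obesity Enpep was between 0.55 and 0.64 in SAT and between −1.68 and −1.45 in VAT, and Agt between −5.45 and −4.39 in SAT and between −2.57 and −2.20 in VAT (log2). Averaged over diets both stayed above 0 and called in 16 of 16 fits. Of the members not picked, 0 of 3 rows were called in SAT in the main fit. With no filter on low counts 1 of 7 rows was called, beside 1410 of all 43411 rows. Summed per gene with no filter, 1 of 5 was called, beside 1506 of all 31421. In VAT 0 were called instead of 1 with no filter, in a fit of the 8 VAT libraries, without the 2 shallow libraries, summed per gene with no filter, and in each of the fits that left out a mouse (0 to 0). That gene was Anpep, which passed in 5 of 17 fits and was admitted by the filter only through obese VAT. Averaged over diets, 2 to 4 members were called when a mouse was left out, instead of 3 (2 without lean replicate 2, where Anpep was lost, and 4 without lean replicate 3, with Lnpep). For the difference between depots 1 of 5 members was called summed per gene with no filter, beside 419 of all 31421. Of the other pathway genes, 5 instead of 8 were called in VAT in the fit of the 8 VAT libraries and 5 to 7 when a mouse was left out (5 without lean replicates 3 or 4 or obese replicates 3 or 4). For the difference between depots, 0 of 17 rows were called in the main fit. With no filter 2 of 53 rows were called, beside 350 of all 43411 rows. Summed per gene with no filter, 2 of 29 were called, beside 419 of all 31421. Without the 2 shallow libraries 1 of 17 was called, and 0 to 1 when a mouse was left out (1 without lean replicate 1 and obese replicates 1 or 2). The cause of these changes was not tested.

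Same-numbered samples of a diet were taken as 1 mouse. With the replicate block taken as random (voom), 0 members and 3 pathway genes were called in SAT and 1 and 8 in VAT. With no replicate block, 0 and 0 were called for the difference and 3 and 8 for the depots, and of the genes tested only Kng2, admitted by the filter mostly through VAT, lost its call. Over all rows, the difference between depots was called for 288 rows with the block, 128 without it, 152 without lean replicate 3, 134 without obese replicate 4 and 185 without lean replicate 2. In SAT 1468 rows were called and 938 without lean replicate 2, and in VAT 1449 and 832 without obese replicate 4. Low counts limit Anpep, Agtr1a, Agtr2 and Agt in obese SAT, and a gene under 1 CPM is a handful of counts in the shallow libraries.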
